A study of Homo sapiens with 2 samples.

Results

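The genes described are the replication-dependent histone genes, taken as every row of the deposited expression tables whose symbol begins with HIST1H, HIST2H, HIST3H or HIST4H. The rule found 73 of the 26506 genes listed: 6 of class H1, 18 of class H2A, 20 of class H2B, 14 of class H3 and 15 of class H4, the class being read from the symbol. The 73 include 3 genes that are pseudogenes, HIST1H2APS1, HIST2H2BA and HIST2H2BC. Poly(A)-selected RNA was sequenced from the human corneal epithelial line ATCC CRL-11515 after 72 h in either of 2 media. The special medium was DMEM/F12 with 10% fetal bovine serum, EGF at 10 ng/mL, CaCl2 at 1 mM and an antibiotic and antimycotic mixture. The other was keratinocyte serum-free medium (KSFM), whose supplements and calcium are not given in the labels. RNA from 3 cultures was pooled for each medium, so each medium has 1 library. No difference has a replicate check and no p-value is given, and the serum, calcium, EGF and base medium change together, so their parts cannot be told apart.

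Replication-dependent histone genes supply the core histones H2A, H2B, H3 and H4, which wrap DNA into nucleosomes, and the linker histone H1, which binds DNA between them. They lie in clusters, lack introns in their coding part, and are transcribed mainly in S phase, when new chromatin is built. Their main mRNAs are not polyadenylated: the pre-mRNA is cut just after a conserved stem-loop, which is bound by the stem-loop binding protein SLBP and recognised with help of the U7 small nuclear ribonucleoprotein. Some of these genes also give longer, polyadenylated transcripts that read past the stem-loop to a poly(A) signal, and this form is known to increase when cells leave the cycle or differentiate. A poly(A)-selected library therefore samples only the polyadenylated form, together with whatever non-polyadenylated RNA passes the selection, and the values below are not levels of total histone mRNA. In bulk RNA, fewer cells expressing a gene and less RNA per cell cannot be told apart.

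The libraries held 16900472 estimated counts for the special medium and 21604652 for KSFM. At 1 CPM (counts scaled to library size) or more in either library, 13632 genes were detected, and their ratios, given throughout as special medium over KSFM, had a log2 median near 0. A gene was called when it passed 1 CPM in either library, differed at least 2-fold and had an exact 95% interval excluding equality, which made 1344 genes higher and 923 lower. The deposited TPM of the same genes, with 1 added to each value and a 2-fold ratio alone as the rule, without an interval, gave 1266 higher and 349 lower. Of 10 epithelial markers, KRT5, CDH1, EPCAM, KRT15, KRT19 and PAX6 passed 1 CPM, with a median log2 ratio of 0.41. KRT15 (11.29 TPM in the special medium and 2.93 TPM in KSFM) and KRT19 (728.57 and 186.28 TPM) were called higher, 3.40-fold and 3.43-fold, and KRT5 stood at 51.12 and 68.65 TPM. KRT14, at 10.07 counts in the special medium and 4 in KSFM, and TP63, at 13 and 5, were under 1 CPM. The cornea-specific keratin KRT12 had 0 counts in both libraries and its partner KRT3 had 1 count in the special medium and 0 in KSFM. Summed TPM of the 4 endothelial markers was 7.74 in the special medium and 0.30 in KSFM, with CDH5 at 7.09 and 0.06, of the 6 fibroblast markers 3.25 and 2.64, and of the 4 immune markers 70.86 and 59.57, all but a trace of it CD68. PTPRC and CD3E, which define leukocytes and T cells, had 0 counts in the special medium and at most 0.64 in KSFM. CDH5 was the 1 endothelial marker past 1 CPM. PECAM1 stood at 0.42 TPM in the special medium and 0.04 TPM in KSFM, KDR at 0.2 and 0.14, and VWF at 0.03 and 0.06. Whether the CDH5 level marks other cells, and any part of such cells in the histone ratios, was not tested.

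Counts for the histone genes were few in both media. The 73 genes together took 209 counts in the special medium and 249 in KSFM, which is 0.00124% and 0.00115% of all counts. Scaled to library size these sums were 12.4 CPM in the special medium and 11.5 CPM in KSFM, a ratio of 1.07 (0.886 to 1.29). The range after a ratio is its exact 95% interval, in which counting error is the one source of spread. The interval includes equality, so no difference in the summed histone level was detectable at this depth. Summed TPM, which is per length, was 64.37 in the special medium and 47.44 in KSFM, a ratio of 1.36.

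The TPM and count scales differed more for these genes than for most. Across the 10695 other genes with at least 100 counts in each library, the TPM ratio was 1.12 times the CPM ratio at the median. In the 10 histone genes with at least 10 counts in a library it was 1.25 times at the median, and ranged from 0.951 to 1.36. Comparisons between media are therefore made on counts, and comparisons between genes on TPM.

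Of the 73 genes, 54 had a count in either library. There were 35 with a count in both, 9 with a count only in the special medium, at most 6 counts (HIST2H2BF), and 10 only in KSFM, at most 5 counts (HIST4H4). The other 19 were at 0 in both libraries, among them the testis-associated HIST1H1T and HIST1H2BA. A count of 0 allows up to 0.218 CPM in the special medium and 0.171 CPM in KSFM. Counts of at least 10 were reached by 5 genes in the special medium and by 10 in KSFM. Only HIST1H1C, HIST1H2BK and HIST3H2A passed 1 CPM in a library, which is 4.11% of the histone genes, against 51.4% of all genes in the tables. With HIST2 gene copies summed, 5 of 69 units passed 1 CPM. The counts were uneven among the genes: the 10 with the most counts held 55.5% of the histone counts in the special medium and 68.3% in KSFM.

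**Figure D1:**
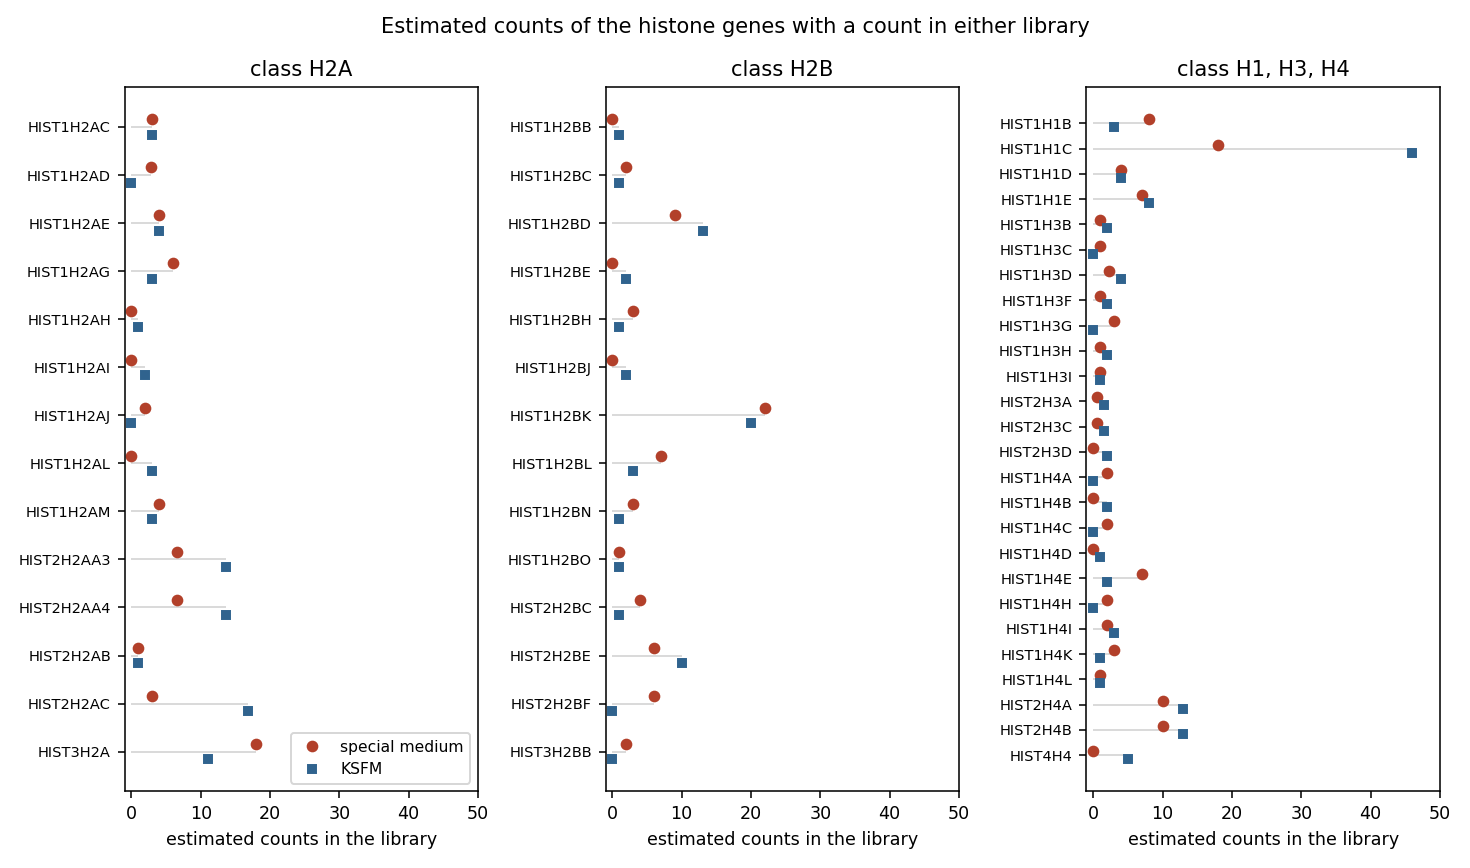
Estimated counts of the 54 histone genes with a count in either library, 1 row per gene, with circles for the special medium library and squares for the KSFM library, in panels by histone class. Most genes lie below 10 counts in both libraries; HIST1H1C stands out at 18 counts in the special medium and 46 in KSFM, and HIST1H2BK at 22 and 20.

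Of the 3 genes past the filter, 0 were called higher and 1, HIST1H1C, was called lower in the special medium. Over all genes past the filter 9.86% were called higher and 6.77% lower, and with 3 genes the histone count cannot be read against these shares. Without the filter, 3 of the 22 histone genes with more than 3 counts in a library had an interval excluding equality: HIST2H2BF on the higher side, and HIST1H1C and HIST2H2AC on the lower side. All 3 rest on 46 counts or fewer in a library, and the KSFM count of HIST2H2AC is fractional, from reads shared with other genes. With no filter, 8.79% of all genes with any count were called higher and 6.11% lower. The like base for the histone genes is the 54 with a count in either library, not the 22. Stricter rules called 0 histone genes in either direction: a 4-fold rule (2.99% of all genes higher and 1.19% lower) and an interval wholly beyond 2-fold (6.14% and 2.9%). A filter of 10 CPM, where 7.57% of all genes were higher and 4.28% lower, admits no histone gene. The highest, HIST1H1C, stood at 2.13 CPM in KSFM, so the 0 calls there were fixed in advance.

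**Figure D2:**
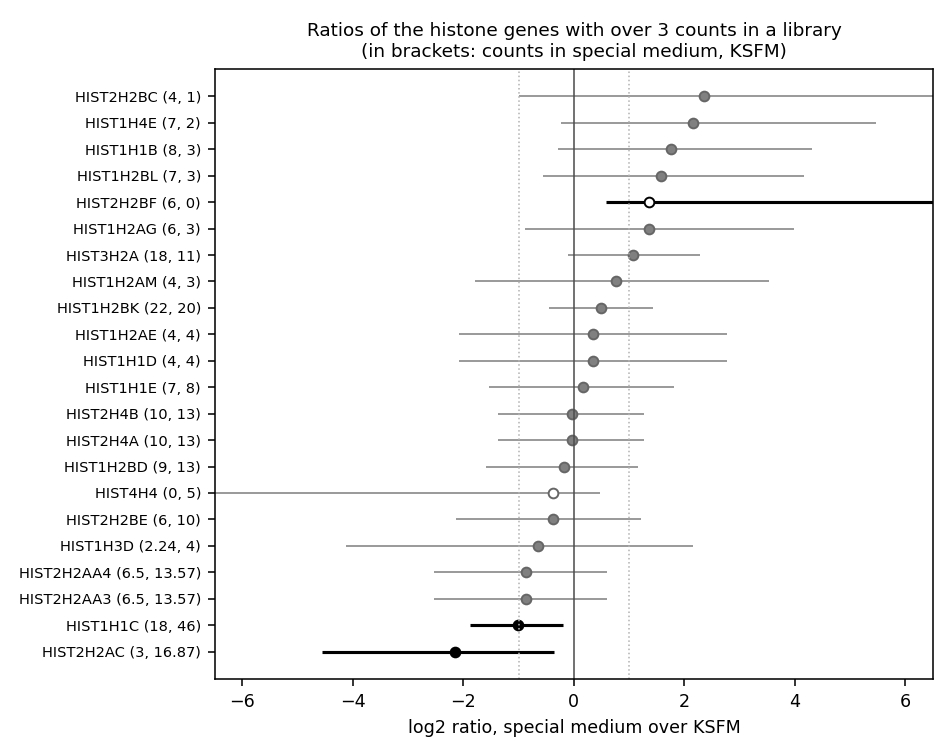
Log2 ratios (special medium over KSFM) of the 22 histone genes with more than 3 counts in a library, with exact 95% intervals (horizontal lines), the counts in brackets, and dotted lines at 2-fold. Black marks the intervals that exclude equality, and open points the genes with 0 counts in 1 library, set to a floor of 3 counts; 19 of the 22 intervals include equality.

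The gene models in GENCODE release 29 (GRCh38) show what a polyadenylated histone transcript would have to read past. All 73 genes matched a model there, and the model of 32 holds the stem-loop, searched in the sense strand as a stem of GGCNCT and AGNGCC around a loop of TTTN. That motif occurs in 58 of the 206694 transcripts of the release, 0.0281%, and in 6 genes outside the HIST symbols, among them H2AFX. The windows below give the 5 forms of the stem-loop in genes with counts here, 5′ to 3′, with the stem-loop in capitals. HIST3H2A and HIST2H2AA3 carry the form found in 17 genes.
HIST3H2A: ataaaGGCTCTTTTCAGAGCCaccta
HIST2H2AA3: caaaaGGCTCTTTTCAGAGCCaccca
HIST1H2BD: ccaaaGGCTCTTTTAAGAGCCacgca
HIST1H4E: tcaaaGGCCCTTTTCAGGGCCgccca
HIST2H4A: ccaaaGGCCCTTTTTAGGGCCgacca
HIST1H2AG: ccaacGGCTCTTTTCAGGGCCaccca
Their positions are chr1:228457364-228457389 on the minus strand, chr1:149842218-149842243 on the minus strand, chr6:26158582-26158607 on the plus strand, chr6:26204996-26205021 on the plus strand, chr1:149833027-149833052 on the plus strand and chr6:27133510-27133535 on the plus strand. The forms differ at the places marked N in the search. H2A and H2B genes mostly carry the first form, and the H4 genes with a modelled stem-loop carry the forms that begin with GGCCC. The form of HIST1H2BD was found in 5 genes, that of HIST1H4E in 5, that of HIST2H4A in 3 and that of HIST1H2AG in 2.

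In 19 genes the model runs on from the stem-loop to a canonical poly(A) signal, AATAAA or ATTAAA within the last 40 bases. The signals of HIST3H2A and HIST2H2BE, in capitals below, stand at chr1:228456985-228457010 and chr1:149884465-149884490, both on the minus strand, in models that extend 390 and 1729 bases past the stem-loop.
HIST3H2A: tatctgatATTAAAagtatttatgat
HIST2H2BE: ttgttattAATAAAgttaccaattaa
These 19 genes held 102 of the histone counts in the special medium and 104.14 in KSFM, which is 48.8% and 41.8% of the histone counts. The 39 genes whose models have neither the stem-loop nor a terminal signal held 87 counts in the special medium and 121.87 in KSFM. That group includes HIST1H1C, HIST1H2BK and HIST2H2AC, whose models are 642, 381 and 390 bases and cover the coding length alone, so the absence of a motif there says nothing about their transcripts' 3′ ends. Which annotation release the authors counted against is not given in the sources used here.

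Class H1, the linker histones, held 37 counts in the special medium and 61 in KSFM, a ratio of 0.774 (0.50 to 1.18). HIST1H1C (ENSG00000187837, chr6:26055787-26056428, minus strand), which encodes linker histone H1.2, had 18 counts in the special medium and 46 in KSFM, or 1.06 and 2.13 CPM. It was 2.0-fold lower in the special medium (1.14 to 3.67), the only histone gene past the rule, and it stands at the rule's edge: with library totals in place of TMM factors its log2 ratio was −0.999 and it was not called. On deposited TPM it stood at 3.62 in the special medium and 6.14 in KSFM, the highest TPM of any histone gene in KSFM. It took 8.61% of the histone counts in the special medium (5.18 to 13.3) and 18.5% in KSFM (13.9 to 23.9). The other H1 genes summed to 19 counts in the special medium and 15 in KSFM, a ratio of 1.62 (0.778 to 3.42), so the direction of the H1 sum turned without HIST1H1C, with both intervals including equality. HIST1H1B, which encodes H1.5, had 8 and 3 counts in the special medium and KSFM, HIST1H1D, for H1.3, had 4 and 4, and HIST1H1E, for H1.4, had 7 and 8.

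The promoter of HIST1H1C, from RefSeq on GRCh38.p14 at chr6:26056421-26056720 on the minus strand, is shown because it is the called gene. It runs from 250 bases before the start to 50 after it, with CCAAT and the TATA box (TATAAA or TATATA), searched on both strands, in capitals.
HIST1H1C promoter: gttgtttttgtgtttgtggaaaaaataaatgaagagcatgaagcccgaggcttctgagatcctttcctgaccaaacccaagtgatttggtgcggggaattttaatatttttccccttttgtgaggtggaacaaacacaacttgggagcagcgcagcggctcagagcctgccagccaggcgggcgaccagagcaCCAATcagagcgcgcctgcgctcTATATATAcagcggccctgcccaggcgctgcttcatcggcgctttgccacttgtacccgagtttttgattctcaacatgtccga

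Class H2A held 57 counts in the special medium and 75 in KSFM, a ratio of 0.969 (0.675 to 1.39). HIST3H2A (ENSG00000181218, chr1:228456979-228457873, minus strand), a histone H2A gene of the small HIST3 cluster, had 18 counts in the special medium and 11 in KSFM, or 1.06 and 0.510 CPM. Its ratio of 2.09 had an interval that includes equality (0.933 to 4.89), so it was not called. At 5.96 TPM in the special medium it had the highest level per length of any histone gene there, against 2.32 TPM in KSFM. HIST2H2AC (ENSG00000184260, chr1:149886975-149887364, plus strand) lay on the other side, at 3 counts in the special medium and 16.87 in KSFM. These are 0.177 and 0.788 CPM, under the filter, and the special medium was 4.44-fold lower (1.29 to 23.7). The KSFM count of HIST2H2AC is fractional, so some reads were shared with other genes, and the interval does not cover that split. Which genes share them was not tested. HIST2H2AA3 and HIST2H2AA4, near-identical copies in the HIST2 cluster, were each given 6.5 counts in the special medium and 13.57 in KSFM, an even split of shared reads. Summed they held 13 and 27 counts after rounding, a ratio of 0.614 (0.291 to 1.23). Without HIST3H2A the class ratio was 0.777 (0.508 to 1.18). The remaining H2A genes had 6 counts or fewer in either library.

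HIST3H2A carries no TATA box or octamer core in its RefSeq promoter, chr1:228457824-228458123 on the minus strand, but 3 copies of CCAAT, in capitals on either strand.
HIST3H2A promoter: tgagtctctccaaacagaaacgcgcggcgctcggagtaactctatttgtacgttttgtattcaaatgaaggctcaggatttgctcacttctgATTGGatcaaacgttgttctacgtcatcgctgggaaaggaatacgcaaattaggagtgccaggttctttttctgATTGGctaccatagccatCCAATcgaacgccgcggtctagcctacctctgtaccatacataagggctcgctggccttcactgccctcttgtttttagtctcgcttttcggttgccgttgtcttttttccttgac

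Class H2B was the one class whose summed ratio had an interval excluding equality. It held 65 counts in the special medium and 56 in KSFM, or 3.84 and 2.60 CPM, and was 1.48-fold higher in the special medium (1.02 to 2.16). Without its leading gene HIST1H2BK the ratio was 1.52 with an interval that includes equality (0.956 to 2.44), on 43 counts in the special medium and 36 in KSFM. Since 5 classes were summed and the interval covers counting error only, the H2B excess is described and not called. The H2B sums also include the pseudogene HIST2H2BC, at 4 counts in the special medium and 1 in KSFM. The class was not summed without that pseudogene. HIST1H2BK (ENSG00000197903, chr6:27146418-27146798, minus strand), an H2B gene known to give polyadenylated transcripts, had the most counts of any histone gene in the special medium, 22, against 20 in KSFM. Its levels were 1.30 CPM in the special medium and 0.927 CPM in KSFM, a ratio of 1.40 (0.730 to 2.71), and 3.75 and 2.81 TPM. HIST1H2BD had 9 counts in the special medium and 13 in KSFM, and HIST2H2BE 6 and 10, with intervals that include equality. HIST2H2BF had 6 counts in the special medium and 0 in KSFM. It stood at 0.355 CPM in the special medium, under the filter, and the exact interval puts it at least 1.5-fold higher there. HIST1H2BL had 7 and 3 counts in the special medium and KSFM, and the other H2B genes 4 or fewer in either library.

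The promoter of HIST1H2BK, chr6:27146809-27147108 on the minus strand, holds TATA boxes, several copies of CCAAT on both strands and the octamer core TTTGCAT, the letters of the element bound by OCT1 in H2B promoters, all in capitals.
HIST1H2BK promoter: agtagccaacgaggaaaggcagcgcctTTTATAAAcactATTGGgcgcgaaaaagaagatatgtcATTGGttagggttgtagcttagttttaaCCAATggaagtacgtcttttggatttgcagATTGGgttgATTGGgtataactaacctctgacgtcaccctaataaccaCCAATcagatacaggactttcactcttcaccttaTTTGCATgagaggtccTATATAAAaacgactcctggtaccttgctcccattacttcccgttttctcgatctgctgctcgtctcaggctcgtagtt

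Class H3 was the least covered. It held 11 counts in the special medium and 16 in KSFM, a ratio of 0.877 (0.368 to 2.01), and no H3 gene exceeded 4 counts in a library. HIST2H3A and HIST2H3C, which encode the same protein, were given equal fractional counts, and with HIST2H3D they summed to 1 count in the special medium and 5 in KSFM. Class H4 held 39 and 41 counts in the special medium and KSFM, a ratio of 1.21 (0.762 to 1.93). HIST2H4A and HIST2H4B, near-identical copies, had 10 counts each in the special medium and 13 each in KSFM, and summed to 20 and 26, a ratio of 0.981 (0.519 to 1.83). Their spans overlap HIST2H3C and HIST2H3A on the opposite strand, and the strand setting of the counting is not given in the sources used here. HIST1H4E had 7 counts in the special medium and 2 in KSFM, with an interval that includes equality. On summed TPM the class ratios were 1.16 for H2A and 1.14 for H3, against 0.969 and 0.877 on counts, so the side of equality depends on the scale. HIST4H4, alone on chromosome 12, had 0 counts in the special medium and 5 in KSFM, also with an interval that includes equality.

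**Figure D3:**
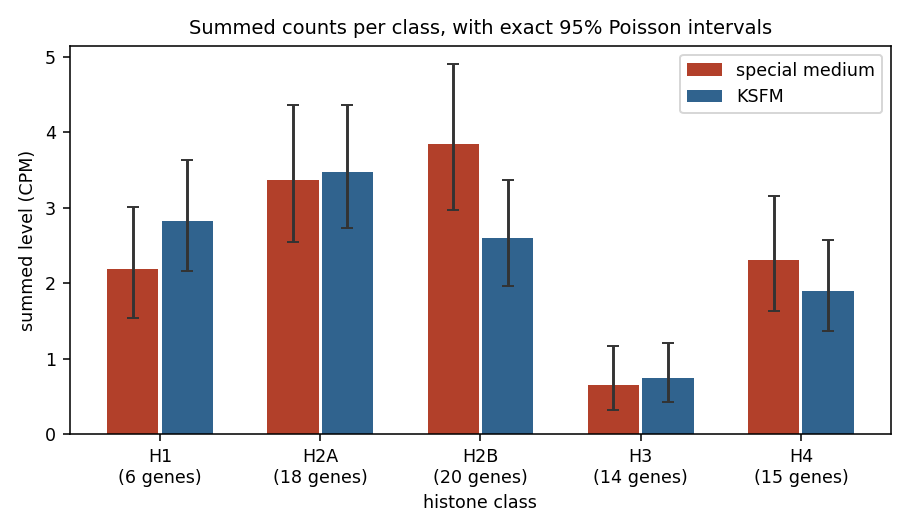
Summed counts of each histone class as CPM, bars for the special medium on the left and KSFM on the right of each pair, with exact 95% Poisson intervals for counting error. H2B stands at 3.84 CPM in the special medium and 2.60 CPM in KSFM; H3 is lowest, at 0.650 and 0.741 CPM.

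By genomic cluster, the 56 HIST1 genes on chromosome 6, between 25726132 and 27893843, held 135 counts in the special medium and 146 in KSFM, a ratio of 1.18 (0.926 to 1.5). The 13 HIST2 genes on chromosome 1 held 54 and 87, a ratio of 0.792 (0.553 to 1.12). The 3 HIST3 genes, on chromosome 1 between 228424845 and 228460470, held 20 and 11, a ratio of 2.32 (1.06 to 5.36). HIST3H2A accounts for 18 and 11 of these, and its own interval includes equality (0.933 to 4.89). Since several clusters were summed and the interval covers counting error only, the HIST3 excess in the special medium is described and not called.

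The histone promoters shared elements beyond the symbols that chose them. Of the 73 genes, 65 had a RefSeq promoter of 300 bases. The letters of a TATA box were present anywhere on either strand in 48 (73.8%), against 14.2% of 27305 RefSeq promoters. On the sense strand shortly before the start they were present in 41 (63.1%), against 3.51%. CCAAT on either strand was present in 55 (84.6%), against 35.7%. The octamer core TTTGCAT on either strand was present in 26 (40%), against 4.51%. It was found in 14 of the 18 H2B and 11 of the 16 H2A promoters, in 1 of the 12 H3 promoters and in none of the 6 H1 or 13 H4 promoters, while CCAAT was found in 3 of the 13 H4 promoters and in every other one. The classes are not independent here, since 23 of the 65 windows overlap that of another histone gene, 11 each of class H2A and H2B, which are often paired head to head, and 1 of class H3. That 1, HIST1H3D, is the H3 promoter with the octamer core, and its window is the same as that of HIST1H2AD. A match of letters describes the window and is not a binding site.

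From a list of 11 histone genes known to give polyadenylated transcripts, all 11 were in the tables. They are HIST1H1C, HIST1H2AC, HIST1H2BC, HIST1H2BD, HIST1H2BJ, HIST1H2BK, HIST2H2AA3, HIST2H2AA4, HIST2H2BE, HIST3H2A and HIST4H4. They held 91 counts in the special medium and 138.14 in KSFM, against 118 and 110.87 in the other 62 genes. All 3 genes past 1 CPM belong to this list and none of the other 62 reached 1 CPM singly. The list was set from background knowledge, with earlier results of these data known, so that separation is description and no support for the list. The separation also depends on how shared reads are split. Summed, the copies HIST2H4A and HIST2H4B, outside the list, stood at 1.18 CPM in the special medium and 1.20 CPM in KSFM. HIST1H1C alone makes up 18 and 46 of the list's counts in the special medium and KSFM.

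Replication-independent histone genes, whose mRNAs are mostly polyadenylated in the ordinary way and which are expressed outside S phase, were far more abundant in the same libraries. The H1 variants H1F0 and H1FX summed to 1552.76 TPM in the special medium and 1656.87 TPM in KSFM, 218 and 207 times the summed H1 genes. H1F0, encoding the linker histone H1.0 of resting and differentiated cells, alone stood at 1359.92 TPM in the special medium and 1502.59 TPM in KSFM, 21.1 and 31.7 times all 73 histone genes together. The H2A variants summed to 84.9 times the H2A genes in the special medium and 70.0 times in KSFM, led by H2AFZ, for H2A.Z, at 854.98 and 536.14 TPM. The H3 variants summed to 249 and 317 times the H3 genes, led by H3F3B, for H3.3, at 799.32 and 941.51 TPM.

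**Figure D4:**
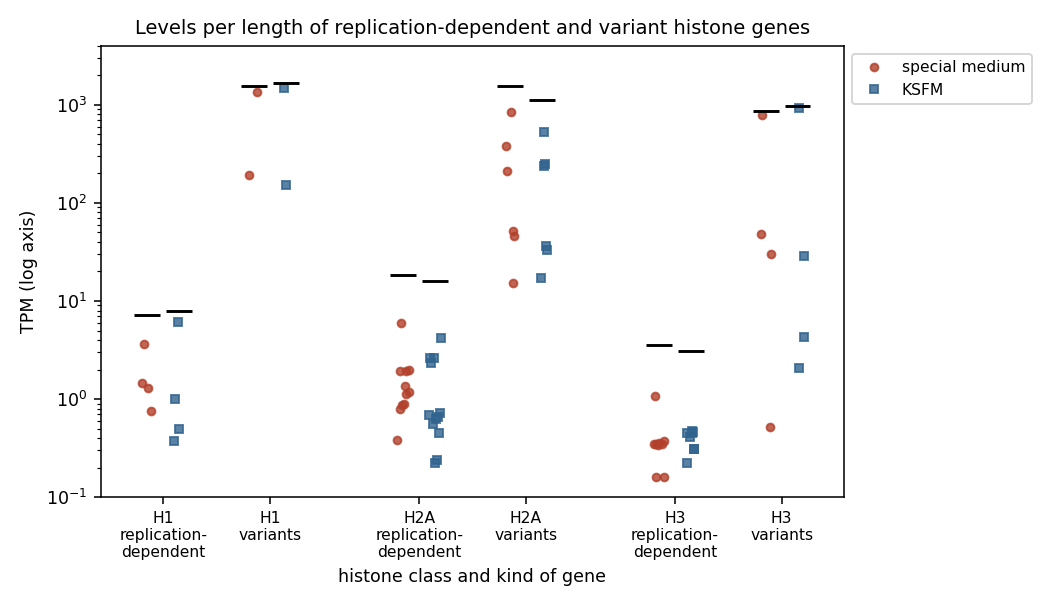
TPM on a log axis for the replication-dependent genes and the replication-independent variants of classes H1, H2A and H3, circles for the special medium and squares for KSFM, 1 point per gene above 0, with black bars at the sum of each group. The summed H1 variants reach 1552.76 TPM in the special medium and 1656.87 TPM in KSFM, against 7.13 and 8.0 TPM for the summed H1 genes.

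All 12 variants passed the filter, with a median log2 ratio of 0.22, and 1 was called higher and 1 lower, near the shares of all genes (9.86% higher and 6.77% lower). H3F3A, an H3.3 gene, had 231.37 counts in the special medium and 48.88 in KSFM, 6.01-fold higher (4.40 to 8.36). The pseudogene H3F3AP4, which resembles it closely, was given 2538.6 and 3814.1 counts, so the split of reads between them is uncertain. Summed, they held 2770 counts in the special medium and 3863 in KSFM, a ratio of 0.914 (0.871 to 0.960), so the direction of H3F3A turns with the split. H3F3C, a retrotransposed H3.5 gene, had 4 counts in the special medium and 23.13 in KSFM, 4.51-fold lower (1.54 to 17.9). Its KSFM count is fractional, so some reads were shared with other genes, and the interval does not cover that split.

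The genes around histone supply were detected in full. Their counts of calls are to be read beside the 9.86% of all genes called higher and the 6.77% called lower. All 26 genes for histone transcription, stem-loop processing and mRNA turnover passed the filter, 0 were called in either direction, and the median log2 ratio was −0.11. SLBP had 2156 counts in the special medium and 3393 in KSFM, 127 and 157 CPM, a log2 ratio of −0.30, and stood at 123.81 and 135.58 TPM. SNRPB, which encodes the Sm proteins B and B′ of spliceosomal and U7 particles, had a log2 ratio of 0.20. Of the 14 canonical polyadenylation factors 1 was called higher and 0 lower, which is near the share of all genes, with a median of 0.11. That gene was PCF11, a cleavage and termination factor, with 680 counts in the special medium and 246 in KSFM, 3.52-fold higher (3.04 to 4.10).

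Of 20 histone chaperones and assembly factors 0 were called, against 9.86% higher and 6.77% lower over all genes, with a median log2 ratio of 0.26. NAP1L1, an H2A-H2B chaperone, had a log2 ratio of 0.43, and SSRP1, a subunit of the FACT complex, −0.07. Of 25 S phase and G1/S genes 1 was called higher and 0 lower, against the same shares of all genes, with a median of 0.28. PCNA, the replication clamp, stood at 823.60 TPM in the special medium and 608.01 TPM in KSFM, 12.8 times the 73 histone genes together in each.

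**Figure D5:**
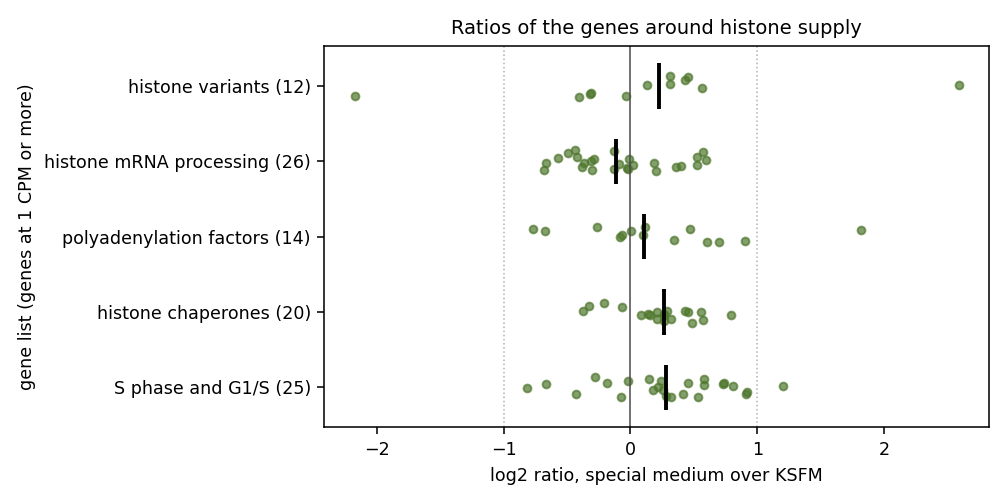
Log2 ratios (special medium over KSFM) of genes at 1 CPM or more in 5 lists around histone supply, 1 point per gene, with the black bar at the list median and dotted lines at 2-fold. Medians run from −0.11 for the histone mRNA processing genes to 0.28 for the S phase genes; H3F3A and H3F3C lie at the extremes, with the direction of H3F3A depending on how reads are split with its pseudogene.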

How the data were processed

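Poly(A) RNA of each medium was prepared with a stranded kit from RNA pooled over 3 cultures, per the labels' protocols. The submitters' processing notes name the GRCh38 build, RSEM, the aligner HISAT2 2.1.0 and the read tools fastp 0.20.0 and FastQC 0.11.9, without an order. Neither the annotation release nor the strand setting is given in the sources used here. Estimated counts were deposited by the authors, fractional where reads are shared, and so were TPM values, both by gene symbol. Of the 73 histone genes, 70 have no Ensembl identifier there, so identifiers and coordinates come from GENCODE release 29 by symbol. The histone genes and the gene lists were chosen with earlier results of these data known.

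Estimated counts were rounded and library sizes scaled by edgeR 4.0.16 TMM factors. Ratios of special medium over KSFM have exact 95% Clopper-Pearson intervals conditional on the summed count, and a 0 count was set to a floor of 3. Reads carry no molecular identifiers and are not independent molecules, so both describe counting error only. Calls needed 1 CPM in either library, a 2-fold ratio and an interval excluding equality. Calls on TPM needed the 1 CPM and the 2-fold ratio only. With 1 library per medium no test was made between media.

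Genes named are the histone genes at 1 CPM or more, and of each list up to 4 called genes or, if none, the 2 with the highest CPM in KSFM. Other histone genes, H1F0, H1FX, H2AFZ, H3F3B, H3F3AP4, PCNA and single markers were named after their values were seen. A called S phase gene is not reported here by name. Alternatives were scaling by upper quartile, library total or DESeq2 1.42.0 size factors; TPM plus 1 or plus 0.1; no filter or one of 10 CPM; a 4-fold rule; an interval beyond 2-fold; summed copies; and sums without the leading gene. Promoters are from RefSeq (GRCh38.p14). Computation used Python 3.11.15 with scipy 1.17.1, numpy 2.4.6, matplotlib 3.10.9 and pandas 2.3.3, and R 4.3.3.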

Additional observations from a re-analysis of the deposited data

How the results depend on the processing

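No paired analysis was possible because each medium has 1 pooled library. Few histone counts limit these results: with 18 and 46 counts a 2-fold ratio was barely distinguishable, and most genes had under 10. HIST1H1C, the 1 histone gene called lower, was not called under total count scaling (log2 −0.999), on TPM with pseudocounts of 1 (−0.63) or 0.1 (−0.75) or centred (−0.78), at 10 CPM, by a 4-fold rule or with an interval beyond 2-fold. The count called lower was then 0 of the histone genes and 0 of the 11 known to be polyadenylated. Leaving out HIST1H1C, the leading gene, also gives 0, by construction, as does the 10 CPM filter, which no histone gene reached. With no filter 2 histone genes were called lower and 1 higher, where 8.79% of all genes were called higher and 6.11% lower. Calls on TPM, here and below, used the 1 CPM filter and a 2-fold ratio alone, without an interval. By that rule 1 histone gene, HIST3H2A, was called higher with pseudocounts of 1 and 0.1 (log2 1.07 and 1.32). Its interval on counts includes equality.

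The summed histone level had a log2 ratio of 0.44 on TPM, against 0.10 on counts. On TPM the median of all genes shifts by 0.15 with a pseudocount of 1 and by 0.16 with 0.1, and list medians shift likewise: 0.40 and 0.40 for the variants, 0.048 and 0.053 for the histone mRNA processing genes, whose sign turns, 0.27 and 0.27 for the polyadenylation factors, 0.39 and 0.40 for the chaperones, and 0.44 and 0.44 for the S phase genes. Without HIST1H2BK the log2 ratio of H2B was 0.61, against 0.57 with it, and its interval includes equality.

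On TPM 3 S phase genes were called higher with either pseudocount, and 2 polyadenylation factors with 0.1; by the 4-fold rule both counts were 0. Summed with H3F3AP4, an alternative chosen after seeing the data, H3F3A had a log2 ratio of −0.13, against 2.59 alone. H3F3C was not called at 10 CPM, where its 1.07 CPM in KSFM left it out, or with an interval beyond 2-fold, which left 0 variants lower. Over all genes, 349 were lower on TPM with a pseudocount of 1, 605 with 0.1 (1671 higher) and 536 when centred (928 higher). At 10 CPM 788 were higher and 446 lower, by the 4-fold rule 408 and 162, and with an interval beyond 2-fold 837 and 395. The other 204 of these results under an alternative stayed within a set margin or their interval, or kept their interval on the same side of equality. That margin let some signs turn. With copies summed the histone median log2 ratio was −0.03, against 0.49. Without HIST1H1C the log2 ratio of the H1 sum was 0.69, against −0.37, with both intervals including equality.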
